A study of Rattus norvegicus with 6 samples.

Results

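The miR-130 and miR-301 family consists here of rno-miR-130a-3p, rno-miR-130b-3p, rno-miR-301a-3p and rno-miR-301b-3p, which are 4 of the 758 miRNAs with probes on the array. The members were found by name in the array annotation. The family itself was picked for description from results of this same comparison of infarcted with control hearts, so the group differences of its members are given as measured values with their errors, without p-values. The left ventricle of male rats aged 8 weeks was profiled for miRNAs on 6 single-colour microarrays, 1 per sample. In the MI group (myocardial infarction, 3 samples, labelled 24 h) the left coronary artery was tied and rats whose electrocardiogram showed the infarction were kept, and in the control group (3 samples, labelled 0 h) the same surgery was done without tying it. Time after surgery and ligation therefore cannot be told apart. The labels do not say which zone of the ventricle was taken, nor which animal gave each sample, so the errors describe the spread between these samples.

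MiRNAs guide a silencing complex to messenger RNAs mainly through the seed, bases 2 to 8 of the mature strand, so miRNAs with the same seed share many predicted targets. The miR-130 and miR-301 family is known for its part in blood vessels. MiR-130a promotes the angiogenic behaviour of human endothelial cells by repressing the homeobox genes GAX and HOXA5. The family also represses PPARG, a nuclear receptor that restrains vascular remodelling. In rodent and human pulmonary hypertension the family is induced by low oxygen. In human cancer cells miR-301a represses NKRF, a repressor of NF-κB.

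Mature sequences are shown because the seed defines the family and the remaining bases are what separates its members on an array. They are those of RefSeq (build GRCr8), 5′ to 3′, with the seed in capitals. The table held 3 of the 4 members, and no other mature rat miRNA among its 693 had the seed AGUGCAA.
rno-miR-130a-3p: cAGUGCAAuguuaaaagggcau
rno-miR-130b-3p: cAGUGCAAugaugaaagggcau
rno-miR-301b-3p: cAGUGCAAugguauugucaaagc

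Counted from base 1 at the 5′ end, these 3 members shared their first 10 bases. MiR-130a-3p and miR-130b-3p were identical at 20 of 22 bases and differed by U11A and A13G, miR-130a-3p first. MiR-301b-3p matched miR-130a-3p at 13 and miR-130b-3p at 12 of the 22 bases compared without gaps. The signal that near-identical members may give on each other's probes was not tested.

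The precursor hairpins are shown because they hold both strands of each member and because a pair of them sit together in the genome. In RefSeq (GRCr8) the hairpin of miR-130a lies at chr3:90229228-90229315 on the minus strand. Those of miR-301a, at chr10:72422599-72422698, of miR-301b, at chr11:97384033-97384110, and of miR-130b, at chr11:97384380-97384461, lie on the plus strand. The array files name build rn4 and no coordinate was taken from them. Each hairpin held the family's seed letters once, in capitals below.
Mir130a: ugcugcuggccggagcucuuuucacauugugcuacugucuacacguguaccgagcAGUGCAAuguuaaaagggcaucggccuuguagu
Mir130b: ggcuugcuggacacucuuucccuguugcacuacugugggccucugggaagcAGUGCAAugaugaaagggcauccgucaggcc
Mir301a: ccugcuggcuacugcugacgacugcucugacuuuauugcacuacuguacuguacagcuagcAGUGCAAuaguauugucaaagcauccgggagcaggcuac
Mir301b: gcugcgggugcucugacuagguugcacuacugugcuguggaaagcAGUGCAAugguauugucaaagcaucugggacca

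Mir301b and Mir130b are neighbours with 269 bases between their hairpins, and both overlap the protein-coding gene 2610318N02Rikl. Mir301a overlaps a pair of protein-coding genes, Ska2, which encodes a protein of the spindle and kinetochore complex, and Prr11. Mir130a lies on chromosome 3, apart from the other members, and overlaps another miRNA gene, Mir3590.

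All 4 members were detected on all 6 arrays, meaning that over 50% of the spots of at least 1 of their probes were well above background. For the signals below, arrays were brought to an equal 75th percentile over those probes that every array detected, and the probes of a miRNA were summed. Values per array are given in the order of replicates 1, 2 and 3. Levels of different miRNAs cannot be set against each other, because each probe has its own brightness. The 6 arrays detected between 446 and 472 miRNAs each, and array scaling factors lay between 0.912 and 1.06. As a check of the labelled tissue, 4 miRNAs of heart muscle (miR-1-3p, miR-499-5p, miR-133a-3p, miR-208a-3p) were detected on every array. Header codes placed MI replicates 2 and 3 apart from the other 4 arrays, and control replicate 3 was scanned separately. With the header code as a block, which takes the MI side from MI replicate 1 alone, the log2 difference was 0.26 for miR-130b-3p, -0.06 for miR-130a-3p, -0.06 for miR-301a-3p and -0.20 for miR-301b-3p.

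In these hearts the differences of the family's members were small and of both signs. MiR-130b-3p was slightly higher 24 h after ligation, 1.17-fold (log2 difference 0.23 ± 0.07, SE, n = 3 per group), and miR-130a-3p was slightly lower, 1.07-fold (-0.10 ± 0.07). MiR-301a-3p differed by 0.04 ± 0.09 and miR-301b-3p by -0.05 ± 0.16, less than their SE. In limma with Benjamini-Hochberg adjustment over all 449 miRNAs tested, 0 of the 4 members were past an adjusted p of 0.05, beside 2.45% of all miRNAs. At an unadjusted p under 0.05 limma counted 1 of 4, miR-130b-3p, beside 13.6% of all. These counts come from the contrast behind the choice of the family and support nothing by themselves.

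MiR-130b-3p, the member of the Mir301b and Mir130b cluster with the larger difference, had scaled signals of 90.2, 90.3 and 98.1 in the controls, against 111, 106 and 109 after MI. All MI arrays lay above all control arrays, with the nearest values at 98.1 and 106. On the log2 scale the control mean was 6.54 ± 0.07 and the MI mean 6.77 ± 0.04 (SD, n = 3). Of all miRNAs tested, 10.9% had every MI array above every control. The difference of miR-130b-3p stood at percentile 86.4 of the 449 differences.

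MiR-130a-3p, the member best known from endothelial cells, gave scaled signals of 16598, 17020 and 18663 in the controls. After MI they were 16650, 16246 and 15890. The groups overlapped, since MI replicate 1 was above control replicate 1. The highest control, replicate 3, stood apart from the other controls, and the log2 means were 14.09 ± 0.09 and 13.99 ± 0.03 (SD, n = 3). Without control replicate 3 the log2 difference was -0.05.

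MiR-301a-3p, the member known for repressing NKRF in human cells, had scaled signals of 1145, 1128 and 1205 in the controls, against 1111, 1343 and 1142 after MI. MI replicate 2 was the highest of the 6 arrays and MI replicate 1 the lowest, so the control values lay inside the MI range. The log2 means were 10.18 ± 0.05 in controls and 10.22 ± 0.15 after MI (SD, n = 3). Leaving out MI replicate 2 turned the log2 difference to -0.04, and 8 of the 23 alternative settings gave the opposite sign.

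MiR-301b-3p, the cluster partner of miR-130b, had scaled signals of 29.6, 28.7 and 41.3 in the controls, against 28.5, 36.0 and 31.0 after MI. Control replicate 3 was the highest, and the groups overlapped. The log2 means were 5.03 ± 0.29 and 4.99 ± 0.17 (SD, n = 3). Without control replicate 3, the array scanned separately, the log2 difference was 0.12, opposite in sign.

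**Figure D1:**
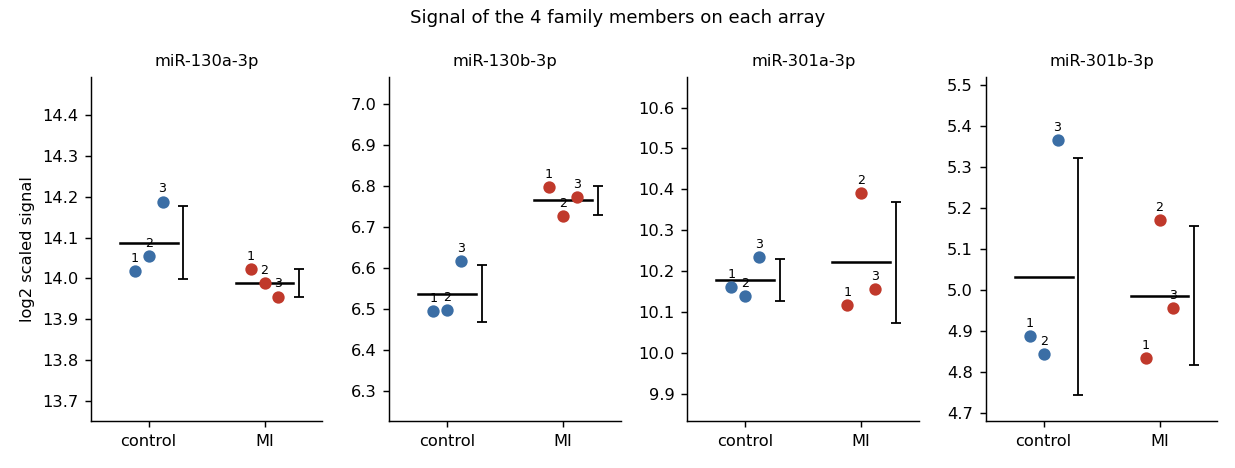
Log2 scaled signal of each family member on the 3 control and 3 MI arrays; points are arrays with their replicate number, thick lines group means and bars the SD. The y axes span the same log2 range but start at different levels, and only for miR-130b-3p do the groups not overlap.

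Of the 4 members, none had all MI arrays below all controls, beside 9.8% of all miRNAs tested, and 1 had all MI arrays above. The median log2 difference was -0.0014 over the 4 members and 0.02 over the 449 tested, with 246 of those above 0 and 203 below. The quartiles of all differences were -0.08 and 0.13. MiR-130b-3p lay above that middle range, miR-130a-3p just below it, and both miR-301 members inside.

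A ratio between members within an array does not depend on a scaling that multiplies the whole array by 1 factor. Relative to the mean of the controls, the log2 ratio of miR-130b-3p to miR-130a-3p was 0.03, -0.01 and -0.02 in the controls. It was 0.32, 0.29 and 0.37 after MI. The groups did not overlap, and the change of 0.33 ± 0.03 (SE, n = 3 per group), 1.25-fold, was larger than the SD of the ratio in controls (0.02) and after MI (0.04). Control replicate 3, high for both miRNAs, was not apart in their ratio. Blocking on the header code left a change of 0.32, and over all 23 alternative settings it ranged from 0.25 to 0.47. The ratio shows that the signals of these close relatives changed unequally, not which of them changed. It was looked at after the values were seen, and it rests on the contrast behind the choice of the family. The SE of ratios, and of single probes below, comes from the group SDs alone. That of single miRNAs is limma's, which also draws on the spread of all tested miRNAs. These kinds of SE should not be set against each other.

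The cluster neighbours miR-130b-3p and miR-301b-3p had a less even ratio. Relative to the control mean, the log2 ratio of miR-301b-3p to miR-130b-3p was -0.10, -0.15 and 0.25 in the controls, against -0.46, -0.05 and -0.31 after MI. The groups overlapped, and the change was -0.28 ± 0.17 (SE). The ratio of miR-301b-3p to miR-301a-3p changed by -0.09 ± 0.14, with the MI arrays close together (SD 0.04) and control replicate 3 away from the other controls (SD 0.24). Of the 6 possible ratios, 1 had groups without overlap, that of miR-130b-3p to miR-130a-3p. The share of such ratios among all pairs of miRNAs was not computed, so this count has no background to stand beside.

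**Figure D2:**
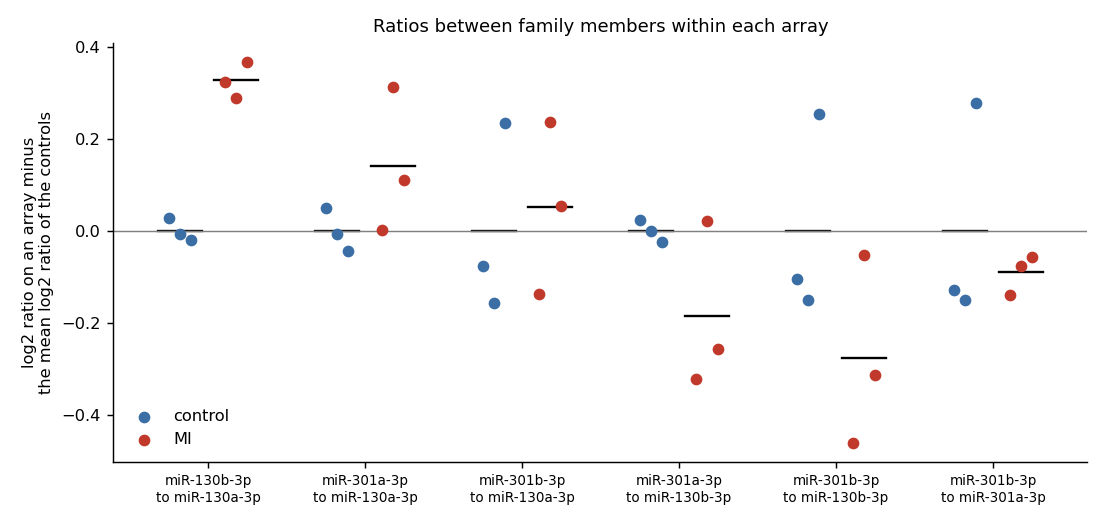
Log2 ratio of each pair of family members on every array, minus the mean log2 ratio of the 3 controls; points are arrays and lines group means. The ratio of miR-130b-3p to miR-130a-3p sits between 0.29 and 0.37 on the MI arrays and between -0.02 and 0.03 on the controls, while the other 5 ratios overlap.

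The members were also read probe by probe. The probes of miR-130b-3p both had all MI arrays above all controls, but by different amounts: 0.32 ± 0.04 on the log2 scale for the dimmer probe 1 and 0.18 ± 0.06 for probe 2 (SE, n = 3 per group). Probe 1 read 30.9, 32.7 and 33.9 in controls and 40.3, 39.8 and 41.8 after MI; probe 2 read 59.3, 57.6 and 64.2 in controls and 70.9, 66.1 and 67.6 after MI. The size of the difference therefore depends on the probe, and its direction did not.

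Both probes of miR-130a-3p lay lower after MI, by -0.10 ± 0.05 and -0.09 ± 0.06, with overlapping groups. Both probes of miR-301a-3p had MI replicate 2 as the highest array, at 851 and 492. The spread between the 4 to 8 spots of a probe on 1 array was at most 6.82% of the mean (CV) for the 6 probes of miR-130a-3p, miR-130b-3p and miR-301a-3p.

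For miR-301b-3p, 2 of its 4 probes were not above background on any array, probe 3 was above it on 2 arrays and probe 4 on all 6. Probe 4 read 22.6, 21.7 and 24.9 in controls and 20.5, 24.9 and 21.6 after MI, a log2 difference of -0.05 ± 0.10. Probe 3 read between 8.59 and 10.5 on 5 arrays and was higher in control replicate 3, where the probes not above background were also at their highest. Spots of these probes varied by up to 40.7% (CV) within an array, and at an SE of 0.16 a difference of the size seen for miR-130b-3p was not detectable for miR-301b-3p.

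**Figure D3:**
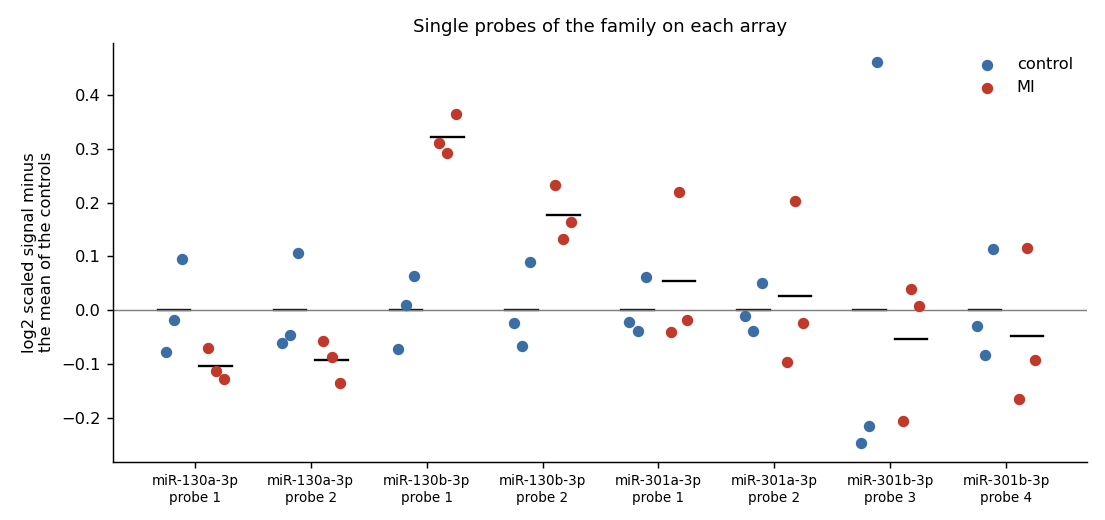
Log2 scaled signal of the 8 family probes that were above background on at least 2 arrays, minus the mean of the 3 controls; points are arrays and lines group means. Both probes of miR-130b-3p separate the groups, and probe 3 of miR-301b-3p shows control replicate 3 far above the other arrays.

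The partner strands, which come from the other arm of each hairpin and are usually degraded, are miR-130a-5p, miR-130b-5p, miR-301a-5p and miR-301b-5p. None was detected on any array: their 10 probes had mean signals between -3.05 and 0.20 after background subtraction, and the scanner software marked them as detected on 0 arrays. Both groups were thus below background, and no fold was formed. In the authors' processed values they sit at the lowest value of each array.

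MiRNAs with the family's seed moved by 1 base can pair with overlapping sites, which is why their sequences are shown. MiR-19a-3p and miR-19b-3p, of the growth-promoting miR-17-92 cluster, have the seed 1 base later, and the miR-148 and miR-152 group, known for repressing the DNA methyltransferase DNMT1, has it 1 base earlier. A further miRNA with the earlier seed form, rno-miR-291b, was not among the miRNAs tested.
rno-miR-19a-3p: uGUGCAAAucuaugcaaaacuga
rno-miR-19b-3p: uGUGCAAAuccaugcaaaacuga
rno-miR-148a-3p: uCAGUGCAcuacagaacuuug
rno-miR-148b-3p: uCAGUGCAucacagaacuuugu
rno-miR-152-3p: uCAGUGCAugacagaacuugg

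Of these 5 relatives by seed, limma called 0 at an adjusted p under 0.05, and 1, miR-19a-3p, had an unadjusted p under 0.05, beside 2.45% and 13.6% of all miRNAs tested. MiR-19a-3p read 1152, 1286 and 1289 in controls and 1515, 1421 and 1404 after MI, with all MI arrays above all controls, as for 10.9% of all miRNAs. Its log2 difference of 0.22 ± 0.08 (SE; limma adjusted p = 0.268, n = 3 per group) was of the size of that of miR-130b-3p. MiR-19b-3p stood at 0.09 ± 0.08, miR-148b-3p at 0.04 ± 0.08, miR-152-3p at -0.08 ± 0.09 and miR-148a-3p at -0.09 ± 0.09. Over these 5 the median log2 difference was 0.04, with 3 above 0 and 2 below; miR-148b-3p changed sign in 10 of the 23 alternative settings.

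In pulmonary vessels, repression of PPARG by the family is known to lower miR-204 and the miR-424 and miR-503 pair, whose rodent counterparts are miR-322 and miR-503. Of these 3 downstream miRNAs, limma called 1 higher and 0 lower here at an adjusted p under 0.05. Of all 449 miRNAs, 2.45% were called in either direction. By sign alone, 1 of the 3 log2 differences was above 0 and 2 were below. MiR-503-5p, which restrains cell cycle genes, had scaled signals of 408, 398 and 373 in controls and 503, 571 and 596 after MI. All MI arrays were above all controls, and the log2 difference was 0.50 ± 0.09 (SE; limma adjusted p = 0.0401, from 0.0318 to 0.402 over its alternatives, n = 3 per group). The call was lost in 19 of 23 alternative settings, all of which kept the direction. It was lost without any 1 of the 3 controls and without MI replicate 2 or 3, and with the header code as a block the log2 difference was 0.36.

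MiR-322-5p, encoded beside miR-503, had a log2 difference of -0.08 ± 0.09 (SE). MiR-204-5p varied widely within groups, from 180 to 661 in controls and from 92.5 to 454 after MI, a log2 difference of -0.37 ± 0.73. Its sign turned without control replicate 3 (0.09) and without MI replicate 1 (0.36).

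**Figure D4:**
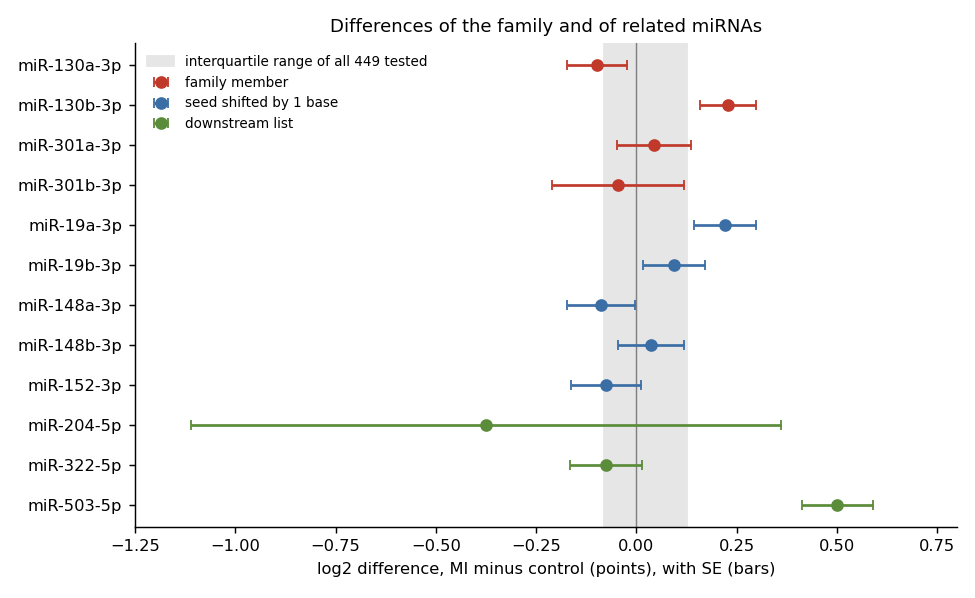
Log2 difference, MI minus control, with its SE, of the 4 family members, the 5 miRNAs with a seed moved by 1 base and the 3 downstream miRNAs; the grey band spans the quartiles of all 449 tested miRNAs, -0.08 to 0.13. MiR-130b-3p and miR-19a-3p lie together at 0.23 and 0.22, and miR-503-5p at 0.50 is the miRNA past the threshold.

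Likeness of pattern was measured as the root mean square difference of log2 signals over the 6 arrays, each miRNA centred on its own mean, among the miRNAs detected on all arrays. The pattern of miR-130a-3p was nearest to those of miR-362-5p (0.02), miR-532-5p (0.04) and miR-181b-5p (0.04), against a median of 0.16 over the 432 other miRNAs. MiR-130b-3p was nearest to miR-664-2-5p (0.04), miR-511-3p (0.05) and miR-19a-3p (0.05). MiR-301a-3p was nearest to miR-490-3p (0.03), miR-103-3p (0.04) and miR-107-3p (0.06), and miR-301b-3p to miR-582-5p (0.05), miR-598-3p (0.08) and miR-138-5p (0.09). No member was among the 3 nearest of another. From miR-130b-3p, miR-301a-3p ranked at place 99, miR-130a-3p at 193 and its cluster neighbour miR-301b-3p at 327 of 432. Seen from miR-301b-3p, the ranks were 32 for miR-301a-3p, 46 for miR-130a-3p and 160 for miR-130b-3p.

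Markers of other cells were read beside the higher miR-130b-3p. Of the leukocyte miRNAs miR-223-3p, miR-142-3p, miR-142-5p and miR-150-5p, 3 of 4 had log2 differences above 0, led by miR-223-3p of neutrophils at 1.45 ± 0.29 (limma adjusted p = 0.0619, from 0.00473 to 0.241 over its alternatives, n = 3 per group), and none passed the threshold. MiR-223-3p passed it without MI replicate 1 and with trend and robust settings, and with the header code as a block its log2 difference was 0.76. MiR-142-3p and miR-142-5p turned sign in 2 and 9 alternative settings. MiR-150-5p went the other way, at -0.21 ± 0.09 (SE), with all MI arrays below all controls, as for 9.8% of all miRNAs tested. The log2 of the summed scaled signals of the 4 leukocyte miRNAs was 13.86 to 14.05 in controls and 13.98 to 14.44 after MI. In this sum and those below, the brightest probes weigh most, so a dim marker adds little. The red cell miRNAs miR-451-5p and miR-144-3p summed to 14.17 to 14.68 in controls and 14.50 to 15.00 after MI, and the endothelial strands of miR-126a to 16.22 to 16.42 and 16.18 to 16.19. The 4 muscle miRNAs, of which 0 had a log2 difference above 0, summed to 17.46 to 17.72 and 17.52 to 17.60. All MI arrays were below all controls for miR-126a-3p, at -0.14 ± 0.08 (SE). The same held for miR-208a-3p of the muscle list, at -0.21 ± 0.08. Muscle miRNAs outside that list, named here after their values were seen, had log2 differences of both signs. MiR-208b-3p stood at 0.22, miR-206-3p at 0.18, miR-133c at 0.12, miR-1b at 0.02 and miR-133b-3p at 0.01. Other strands of the listed miRNAs were lower: miR-133a-5p at -0.40, miR-208a-5p at -0.13, miR-499-3p at -0.12 and miR-1-5p at -0.01. Of these strands, miR-133a-5p and miR-208a-5p had all MI arrays below all controls, as for 9.8% of all miRNAs tested. MiR-1-3p of the list changed sign in 6 alternative settings. The summed level of the stromal and smooth muscle miRNAs (miR-143-3p, miR-145-5p, miR-199a-3p and miR-214-3p) was 15.92 to 16.17 in controls and 15.90 to 15.97 after MI. No marker was below detection on all arrays. The part of cell makeup in the family's values was not tested, and in whole tissue fewer cells of a type and less RNA per cell cannot be told apart.

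In the authors' processed values, on a log2 scale, miR-130a-3p was 13.27, 13.27 and 13.16 in controls and 12.93 on each of the 3 MI arrays, without overlap, a difference of -0.31. MiR-130b-3p was 5.52, 5.55 and 5.58 in controls and 5.81, 5.64 and 5.67 after MI, also without overlap, a difference of 0.16. The share of all miRNAs without overlap in the authors' values was not computed. In those values the groups of miR-130a-3p were therefore further apart than in the scanner signals, and those of miR-130b-3p closer. Exactly equal values recur there: for miR-130a-3p on all MI arrays and on control replicates 1 and 2, and for miR-301a-3p in control replicate 2 and MI replicate 1. The scanner signals of these arrays differed, so the spread of the authors' values does not measure that between samples. MiR-301a-3p and miR-301b-3p differed by -0.00 and -0.11 there, with overlapping groups.

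**Figure D5:**
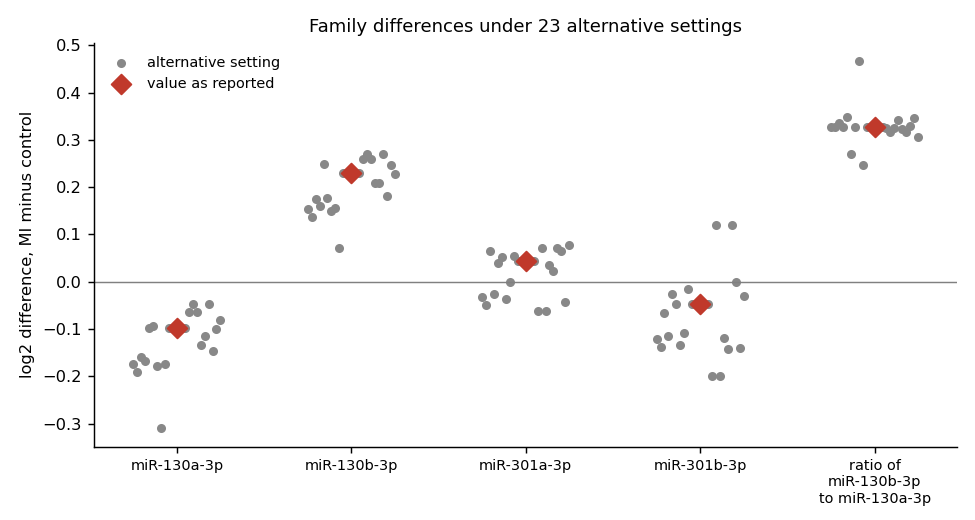
Log2 difference, MI minus control, of each member and of the ratio of miR-130b-3p to miR-130a-3p; diamonds are the values as reported and grey points 23 alternative settings. MiR-130b-3p stays above 0 (0.072 to 0.27) and miR-130a-3p below (-0.31 to -0.05) in all of them, while miR-301a-3p and miR-301b-3p lie on either side of 0.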

How the data were processed

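Total RNA of 6 samples was labelled with Cyanine 3 and hybridised to Agilent rat miRNA arrays. Per the submitters' processing notes, the software was Agilent Feature Extraction 11.0.1.1. Per the file headers, the deposited spot values are linear intensity values with background subtracted, beside the software's flags for outliers and background. The table of values processed by the authors is in log2 units; how they were made is not given in the sources used here.

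Outlier spots were left out, spots averaged per probe, and arrays brought to 1 common 75th percentile over the 885 probes that every array detected. Probes were summed per miRNA, with a floor of 5.14 before log2. MiRNAs detected on all arrays of a group were tested by group with lmFit and eBayes (limma 3.58.1, R 4.3.3), adjusted by Benjamini-Hochberg over 449 miRNAs at a threshold of 0.05. No spot was saturated; precision is limited by how few arrays there are. The fit was tested on simulated data. Alternatives covered scaling, combining of probes, background, filter, floor, moderation, blocks and left-out samples.

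The members and lists (seed relatives, downstream miRNAs, cell markers) were chosen with earlier results of these data known. Named miRNAs are these, the partner strands and the 3 nearest patterns per member. Rno-miR-291b came from the seed search. Further muscle miRNAs, among them other strands of the listed ones, were named after their values were seen. Sequences are RefSeq's (GRCr8). The table held 685 of the 758 names.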

Additional observations from a re-analysis of the deposited data

How the results depend on the processing

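None of the 4 members was past the adjusted threshold in any of the 23 alternatives. The log2 difference of miR-130a-3p was -0.17 with the 75th percentile over all probes, -0.19 with median scaling, -0.17 without scaling, -0.18 in the software total signal, -0.31 in the authors' processed values and -0.17 with normexp background correction. That of miR-130b-3p was 0.15, 0.14, 0.16, 0.15, 0.16 and 0.072 in the same order. Their ratio changed by 0.27 with the brightest probe, 0.47 in the authors' values and 0.25 with normexp. The normexp setting adds an offset of 50 to every signal and then applies quantile normalization. Normexp was run on median signals, since the files hold no mean signal; this setting and the ratio were chosen after seeing the data. Without single samples, miR-130a-3p ranged from -0.15 to -0.05, miR-130b-3p from 0.18 to 0.27, miR-301a-3p from -0.04 to 0.08, miR-301b-3p from -0.14 to 0.12 and the ratio from 0.31 to 0.35.

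Over all miRNAs limma called 11 (8 higher, 3 lower), 10 with the percentile over all probes or with median scaling (5 higher, 5 lower each), 7 without scaling, 5 with no filter, 6 with a floor 4 times as high and 4 to 12 without single samples. The array header gives code 1 to 4 arrays, among them 1 of the MI group, and code 2 to the other 2. A block for this code gave 3 calls, a block for the scan 5, and code 1 alone 4. In code 1, which has 1 MI sample taken to vary as the controls do, miR-130b-3p stood at 0.26 and miR-130a-3p at -0.06. With the replicate block 3 were called, and the members' differences are by construction those of the main fit; same-numbered samples share only a number (correlations of deviations 0.07, -0.04 and 0.11). The cause of these changes was not tested.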
